A study of Mus musculus with 6 samples.

Results

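The interleukin-6 (IL-6) family is described here in mouse granulosa cells, as 10 genes given by name: the ligand genes Lif, Il6, Il11, Clcf1 and Ctf1 and the receptor chain genes Il6st, Lifr, Osmr, Il6ra and Il11ra1. They were found by gene name among the 55860 rows of the deposited count and FPKM tables, and each name matched 1 row. Cells came from the ovaries of Il22r+/+ mice or of Il22r-/- mice, labelled as lacking the receptor for interleukin-22, with 3 libraries per genotype. All cells were isolated on a density gradient and kept for 12 h in DMEM-F12 with 10% serum and antibiotics before RNA extraction, so no freshly isolated cells enter the comparison. The labels do not give the strain, the age of the mice, hormone treatment, the deleted exon, or whether a library is 1 animal or a pool, so p-values measure only the spread between these libraries, which may be technical.

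Granulosa cells are the somatic cells around the oocyte. The cytokines encoded by the listed ligand genes signal through gp130, the product of Il6st, with a further chain that sets which ligand is bound. IL-6 and interleukin-11 first bind their own alpha chains (Il6ra, Il11ra1). Leukemia inhibitory factor and cardiotrophin-1 bring gp130 together with the LIF receptor (Lifr). Oncostatin M, a further family cytokine, brings gp130 together with its own receptor chain (Osmr). The bound chains activate JAK kinases and STAT3, the factor that the interleukin-22 receptor also activates. In the follicle, LIF and IL-6 are known as products of granulosa and cumulus cells around ovulation that promote expansion of the cumulus.

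Libraries held 17425229 to 17704556 counted reads in the wild-type group and 14948187 to 18116413 in the knockout group. Il22ra1, the ligand-binding chain of the interleukin-22 receptor, had 1, 5 and 4 reads in the wild-type and 5, 2 and 0 in the knockout libraries, too few to check the genotype labels. The granulosa genes Inha and Inhba, which encode inhibin and activin subunits, stood at 3202 ± 429 and 1759 ± 144 CPM in Il22r+/+ and at 2605 ± 116 and 2858 ± 188 CPM in Il22r-/- (CPM, counts per M reads, where M is mega, after TMM scaling; mean ± SD, n = 3). Cyp19a1, the aromatase gene, and Amh, which encodes anti-Müllerian hormone, were below the count filter, and Fshr, the receptor of follicle-stimulating hormone, had only 0.257 ± 0.183 CPM in Il22r+/+ and 5.99 ± 1.10 CPM in Il22r-/-; these 3 genes were chosen after their values were seen. On the second principal component, Il22r-/- replicate 3 lay away from the rest (score 14.5 against -8.93 to 1.22). Markers of other cells differed between the genotypes. The summed level of 11 mesothelial and ovarian surface markers was 974 to 991 CPM in Il22r+/+ and 193 to 202 CPM in Il22r-/-, led by the membrane glycoprotein gene Gpm6a and the keratin gene Krt18, and that of 12 macrophage markers, led by the lysozyme gene Lyz2 and by Cd68, was 10.8 to 13.8 and 30.9 to 90.4 CPM. Of the tested genes on these lists, 8 of 10 mesothelial markers fell and 10 of 11 macrophage markers rose by the edgeR test given below. By that test 45.7% of all tested genes were called in either direction and 22.1% were called lower. No marker of either list was at 0 reads in every library. In bulk RNA, fewer cells of a type and less RNA per cell cannot be told apart, and the part of these marker differences in the results below was not tested.

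Most of the family was lower in Il22r-/- cells, with a median log2 fold change of -2.26 over the tested ligands and -0.31 over the receptor chains. All 4 tested ligand genes (Lif, Il6, Clcf1 and Ctf1) fell, by 2.28-fold to 7.21-fold. Of the 5 receptor chains, Osmr fell 2.43-fold, Il11ra1 and Il6st fell by 1.42-fold and 1.24-fold, and Lifr and Il6ra did not pass the test. Il11 had too few reads for a test, and no member rose. In all, 7 of 9 tested members were called, all of them lower, by edgeR's quasi-likelihood test at a Benjamini-Hochberg adjusted p under 0.05 over 15227 tested genes. Of all tested genes, 45.7% were called in either direction and 22.1% were called lower. In the same 7 members every Il22r-/- library lay below every Il22r+/+ library, as in 27.3% of tested genes. Without Il22r-/- replicate 3, 8 of the 9 were called lower, and the calls over all genes rose as well, from 6963 to 8120. The median log2 fold change (Il22r-/- minus Il22r+/+) was -1.19 over the 9 tested members and 0.03 over all tested genes. The ligands' difference from the receptor chains was not tested.

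**Figure D1:**
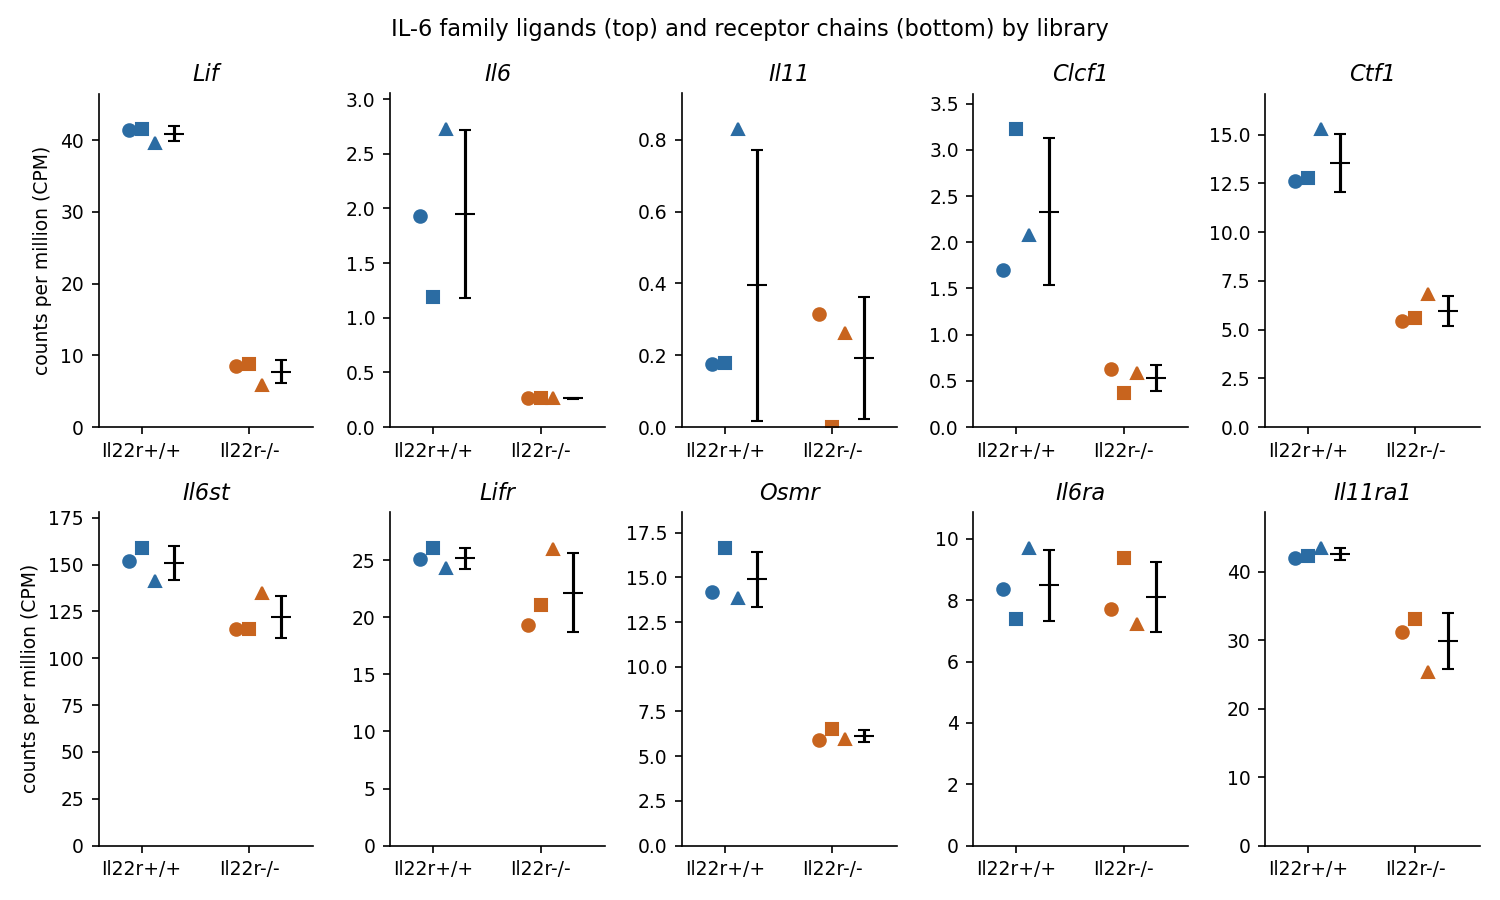
Level of each family member in every library, in CPM from 0 on the vertical axis, with genotype on the horizontal axis, circles, squares and triangles for replicates 1, 2 and 3, and the mean ± SD (n = 3) as a bar beside them. Each panel has its own scale. Lif lies between 39.7 and 41.5 CPM in Il22r+/+ and between 5.91 and 8.75 CPM in Il22r-/-, while the Lifr and Il6ra points of the 2 genotypes overlap.

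Lif (ENSMUSG00000034394, mm10 chromosome 11, 4257557 to 4272514, plus strand), which encodes leukemia inhibitory factor, was the ligand gene with the most reads. It had 41.5, 41.5 and 39.7 CPM in Il22r+/+ replicates 1 to 3 and 8.56, 8.75 and 5.91 CPM in Il22r-/- replicates 1 to 3. The Il22r+/+ libraries lay within 2 CPM of each other, every Il22r-/- library was far below them, and Il22r-/- replicate 3 was the lowest. The log2 fold change was -2.39 ± 0.14 (SE), a 5.25-fold fall, with an edgeR adjusted p of 7.74e-07. A lower log2 fold change than that of Lif was found in 188 tested genes, 1.23% of all.

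Il6 (ENSMUSG00000025746, chromosome 5, 30013114 to 30019981, plus strand), which encodes interleukin-6 itself, was far less abundant. It had 33, 20 and 46 reads in Il22r+/+ (1.93, 1.19 and 2.72 CPM) and 5, 5 and 4 reads in Il22r-/- (0.263, 0.267 and 0.263 CPM). The wild-type libraries varied among themselves more than those of Lif, and none came near the knockout values. The log2 fold change was -2.85 ± 0.45, the largest fall in the family, with an edgeR adjusted p of 0.000483 and a 95% interval from -3.84 to -1.86. With 14 reads in the pooled Il22r-/- libraries the size of the fall is loosely set: the pooled reads gave a ratio of 7.39, Il22r+/+ over Il22r-/-, with an exact 95% interval of 4.20 to 14.0 that covers counting error only.

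The bases just upstream of these 2 strongly lowered ligand genes and of the gp130 gene are shown because the ligands fell 5.25-fold and 7.21-fold and gp130 1.24-fold. They are from RefSeq on GRCm38.p6 (mm10), the 250 bases before the annotated start on the gene's strand, 5′ to 3′, with matches to the AP-1 motif TGANTCA and to the NF-kB consensus in capitals. Lif is at chr11:4257318-4257567, Il6 at chr5:30012864-30013113 and Il6st at chr13:112463820-112464069, all on the plus strand.
Lif: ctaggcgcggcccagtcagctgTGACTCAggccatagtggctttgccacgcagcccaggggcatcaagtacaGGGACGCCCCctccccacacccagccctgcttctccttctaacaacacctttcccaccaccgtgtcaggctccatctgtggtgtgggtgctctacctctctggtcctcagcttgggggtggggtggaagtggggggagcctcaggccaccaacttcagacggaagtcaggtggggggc
Il6: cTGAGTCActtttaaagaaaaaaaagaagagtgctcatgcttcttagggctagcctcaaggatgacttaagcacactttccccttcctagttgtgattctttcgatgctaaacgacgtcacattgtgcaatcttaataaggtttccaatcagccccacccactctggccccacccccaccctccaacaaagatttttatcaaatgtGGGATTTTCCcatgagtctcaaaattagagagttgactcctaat
Il6st: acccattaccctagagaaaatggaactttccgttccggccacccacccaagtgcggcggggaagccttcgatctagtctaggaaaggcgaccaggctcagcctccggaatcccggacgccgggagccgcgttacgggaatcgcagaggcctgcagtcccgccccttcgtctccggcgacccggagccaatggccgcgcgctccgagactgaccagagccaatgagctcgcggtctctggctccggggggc

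Both ligand promoters hold an AP-1 match, starting at position -228 in Lif and -249 in Il6, counted from the annotated start with -1 as the base before it. Each also holds an NF-kB match, starting at -178 in Lif, where the same bases match on either strand, and at -44 in Il6. Il6st holds neither. On both strands and over windows of 250 bases before to 50 after a start, AP-1 letters occurred in 7.81% and NF-kB letters in 8.46% of 32851 mouse promoter windows. Among the 12 windows of the 9 members that the table holds, 4 had an AP-1 match (Lif, Il6, the second window of Il11 and, at base 4 after the start, Osmr) and 2 an NF-kB match. Ctf1 and Il11ra1, also called lower, had neither match in their windows. The STAT letters TTCNNNGAA, found in 8.30% of all windows, were in none of the 12, which says only that these letters are not in these windows. The 250 upstream bases of Il6st held 26 CpG pairs, against 6 in Lif, 3 in Il6 and a median of 6 over all windows. A match is a description of letters, not a site.

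Clcf1 (ENSMUSG00000040663, chromosome 19, 4214238 to 4223490, plus strand) encodes cardiotrophin-like cytokine factor 1, which acts on the ciliary neurotrophic factor receptor. It had 29, 54 and 35 reads in Il22r+/+ (1.70, 3.22 and 2.07 CPM) and 12, 7 and 9 reads in Il22r-/- (0.630, 0.374 and 0.591 CPM). The groups did not overlap, and the wild-type spread was wide. This was a log2 fold change of -2.12 ± 0.39 (edgeR adjusted p = 0.00125). Another annotated gene on the same strand, AC109138.7, overlaps 8.17% of the Clcf1 exon bases, and reads there cannot be assigned between them.

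Ctf1 (ENSMUSG00000042340, chromosome 7, 127712736 to 127718192, plus strand), which encodes cardiotrophin-1, had 12.6, 12.8 and 15.3 CPM in Il22r+/+ and 5.46, 5.60 and 6.83 CPM in Il22r-/-. In both genotypes replicate 3 was the highest, and the groups stayed clearly apart. The log2 fold change was -1.19 ± 0.15 (edgeR adjusted p = 0.000143), the smallest fall among the tested ligands. The neighbouring gene Ctf2 overlaps 4.77% of the Ctf1 exon bases on the other strand, and the strand setting of the counting is not given in the sources used here.

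Il11 (ENSMUSG00000004371, chromosome 7, 4772373 to 4782859, minus strand), which encodes interleukin-11, was below the count filter. Its reads were 3, 3 and 14 in Il22r+/+ and 6, 0 and 4 in Il22r-/-. The groups overlap, and 14 of the 20 wild-type reads were in replicate 3. Pooled, the ratio of Il22r+/+ to Il22r-/- was 2.09, with an exact 95% interval of 0.933 to 5.0, and the log2 ratio (Il22r-/- over Il22r+/+) of -1.06 became 0.09 without Il22r+/+ replicate 3. A difference in Il11 was therefore not detectable at this depth.

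Among the receptor chains, Il6st (ENSMUSG00000021756, chromosome 13, 112464070 to 112510086, plus strand), the gene of gp130, had the most reads. It had 152, 159 and 141 CPM in Il22r+/+ and 116, 115 and 135 CPM in Il22r-/-. The groups came close, since Il22r-/- replicate 3 lay only a little below Il22r+/+ replicate 3. The log2 fold change was -0.31 ± 0.08, with an edgeR adjusted p of 0.0134 and a 95% interval from -0.49 to -0.12. This fall is small and its call depended on the setting: it was lost without Il22r+/+ replicate 1 (log2 -0.30, adjusted p = 0.0558), without Il22r+/+ replicate 2 (-0.27, 0.0646), with library size alone as the scaling (-0.20, 0.0566) and in limma on unfiltered log2(FPKM + 1) values (-0.31, 0.0509), and its adjusted p went as low as 0.000212 elsewhere.

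Osmr (ENSMUSG00000022146, chromosome 15, 6813577 to 6874969, minus strand) encodes the chain that pairs with gp130 for oncostatin M. Osmr differed most among the 5 receptor chains. It had 14.2, 16.7 and 13.9 CPM in Il22r+/+ and 5.88, 6.51 and 5.98 CPM in Il22r-/-. Libraries of each genotype were close together and the groups lay far apart. This was a log2 fold change of -1.28 ± 0.14 (edgeR adjusted p = 4.55e-05, 95% interval -1.59 to -0.97). Its ligand gene Osm had no read in Il22r+/+ and 3, 2 and 0 reads in Il22r-/-, too few for a test.

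Lifr (ENSMUSG00000054263, chromosome 15, 7090614 to 7197489, plus strand) encodes the chain that pairs with gp130 for LIF, cardiotrophin-1 and Clcf1. It had 25.1, 26.1 and 24.3 CPM in Il22r+/+ and 19.3, 21.1 and 26.0 CPM in Il22r-/-. Replicates 1 and 2 of Il22r-/- lay below all wild-type libraries, and replicate 3 lay among them. The log2 fold change of -0.19 ± 0.12 did not pass (edgeR adjusted p = 0.232, 95% interval -0.45 to 0.08). Without Il22r-/- replicate 3 it was -0.34 and passed (adjusted p = 0.0126, against up to 0.574 under other settings), so 1 library decided this call. Lif and Lifr thus gave different calls, but the difference between them was not tested.

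Il6ra (ENSMUSG00000027947, chromosome 3, 89864059 to 89913196, minus strand), the alpha chain that binds IL-6, had 8.36, 7.40 and 9.71 CPM in Il22r+/+ and 7.72, 9.39 and 7.23 CPM in Il22r-/-. The ranges of the groups overlapped, with Il22r-/- replicate 3 the lowest library and Il22r+/+ replicate 3 the highest. The log2 difference of -0.06 ± 0.17 did not pass (edgeR adjusted p = 0.783), its 95% interval from -0.44 to 0.31 leaves room for a change of that size in either direction, and its sign turned with library size alone (0.040) and without Il22r+/+ replicate 3 (0.043). A gene on the other strand, Gm42809, overlaps 2.8% of the Il6ra exon bases.

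Il11ra1 (ENSMUSG00000073889, chromosome 4, 41699989 to 41769474, plus strand), the alpha chain for interleukin-11, had 42.0, 42.3 and 43.5 CPM in Il22r+/+ and 31.2, 33.2 and 25.4 CPM in Il22r-/-. Every knockout library was below the narrow wild-type range, with replicate 3 lowest. This was a log2 fold change of -0.51 ± 0.11 (edgeR adjusted p = 0.00271). Near copies of this gene exist: 35.95% of the 75-base windows of its transcripts also occur in transcripts of Gm13305 or Il11ra2, so its count is uncertain where the counting could split reads. The rows of Gm13305 and of Il11ra2 on chromosome 4 held at most 5 reads in any library.

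**Figure D2:**
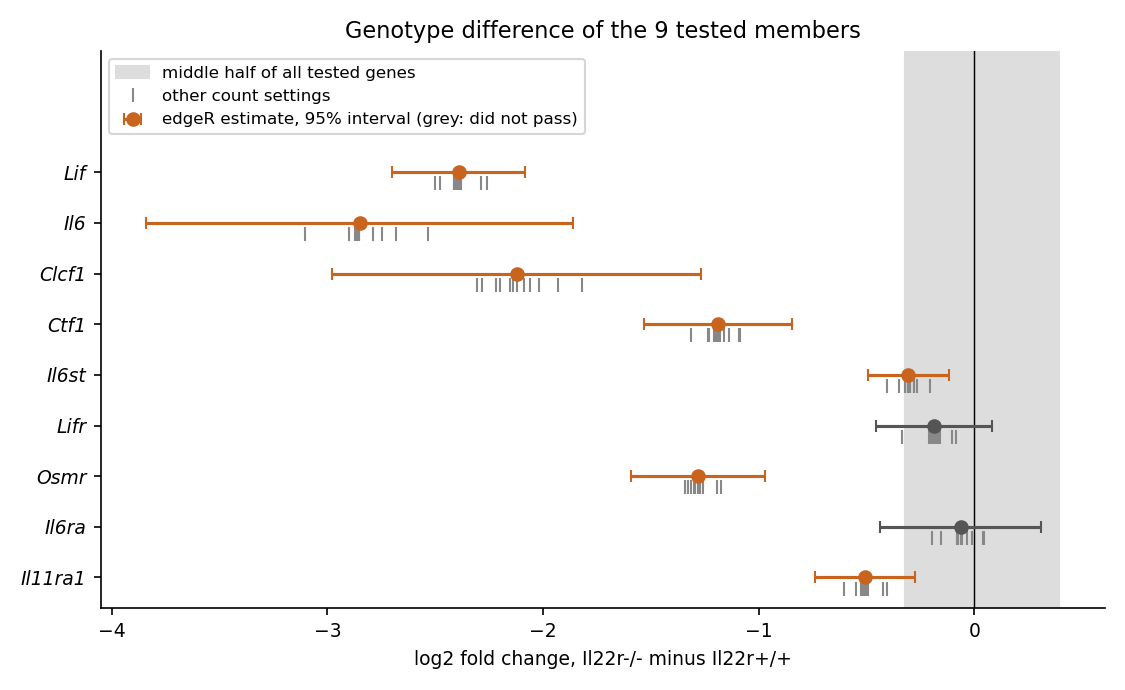
Log2 fold change of the 9 tested members, Il22r-/- minus Il22r+/+, on the horizontal axis, with the edgeR estimate and its 95% interval as a point and bar, the values under the other count-based settings as ticks, and the range between the quartiles of all tested genes (-0.32 to 0.39) shaded. The 4 ligands, Osmr and Il11ra1 lie below the shaded band, and the intervals of Lifr and Il6ra span 0.

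Levels of different genes were compared per gene length, with the deposited FPKM values (fragments scaled by gene length and library total). In Il22r+/+ the order was led by Il6st at 14.0 ± 0.793 FPKM (mean ± SD, n = 3), followed by Il11ra1 at 9.80 ± 0.198 and Lif at 9.66 ± 0.235, whose ranges overlap. Ctf1 came next at 7.64 ± 0.850 FPKM, then Lifr at 2.40 ± 0.0811, Osmr at 1.26 ± 0.128 and Il6ra at 1.01 ± 0.140, each below the range of the gene before it. Il6 at 0.826 ± 0.326 FPKM overlapped Il6ra above and Clcf1 at 0.629 ± 0.213 below, and Il11 was last at 0.195 ± 0.186. So the abundant ligand transcripts in wild-type cells were Lif and Ctf1, which use the LIF receptor, and not Il6.

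In Il22r-/- cells Il6st (11.1 ± 1.09 FPKM) and Il11ra1 (6.75 ± 0.879) still led. Ctf1 followed at 3.30 ± 0.446 FPKM, and Lif, at 1.79 ± 0.356, now overlapped the range of Lifr (2.08 ± 0.344). Il6ra at 0.947 ± 0.131 FPKM stood above Osmr at 0.510 ± 0.0288, the reverse of their wild-type order. Clcf1, Il6 and Il11 were at 0.141 ± 0.0365, 0.110 ± 0.00136 and 0.0934 ± 0.0817 FPKM, with overlapping ranges from each to the next. Summed over the 5 ligands, FPKM was 18.3 to 20.1 in Il22r+/+ and 5.34 to 5.60 in Il22r-/-, and summed over the 5 receptor chains 27.8 to 29.2 and 20.6 to 21.95. Lif made up 46.6% to 53.6% of the ligand sum in Il22r+/+ and 24.7% to 38.0% in Il22r-/-, where Ctf1 held 55.6% to 68.2%.

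**Figure D3:**
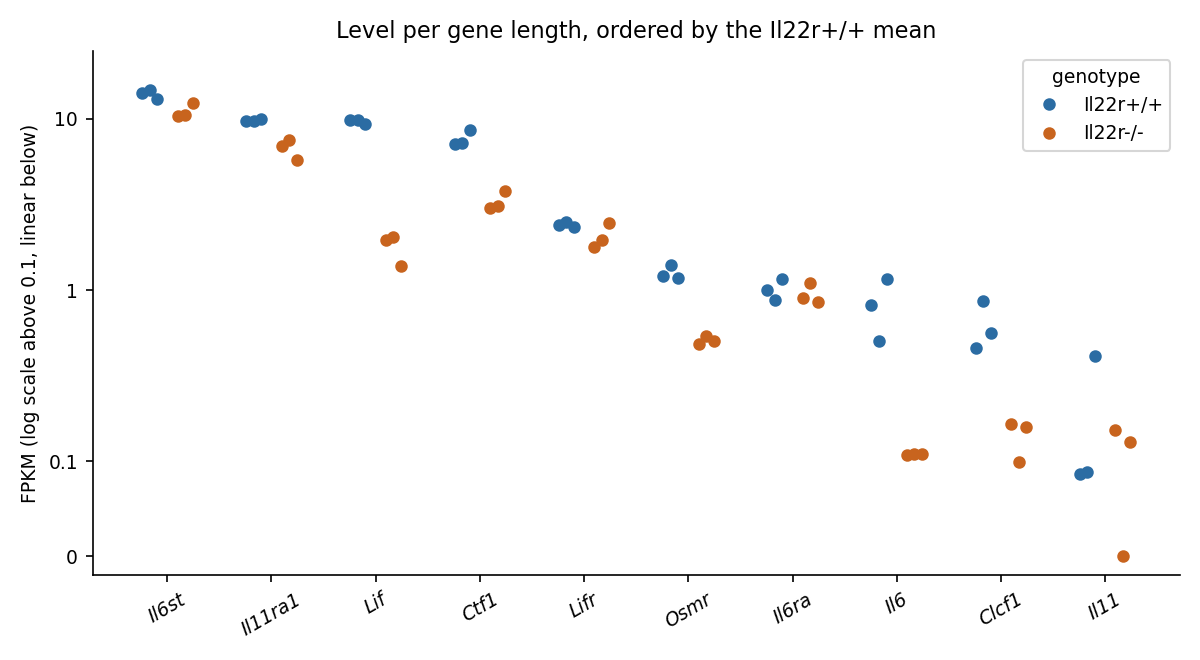
FPKM of the 10 members in every library on a scale that is logarithmic above 0.1 and linear below, ordered along the horizontal axis by the Il22r+/+ mean, with the genotypes in different colours. Il6st is highest in both genotypes, and Lif drops from a range that overlaps Il11ra1 (mean 9.80 FPKM) to a range that overlaps Lifr (mean 2.08 FPKM).

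Ratios within a library do not depend on how libraries are scaled, so the receptor chains were also set against each other. Osmr per Il6st was 0.0853, 0.0960 and 0.0898 in Il22r+/+ and 0.0465, 0.0517 and 0.0407 in Il22r-/-. The genotypes did not overlap, and the log2 difference was -0.97. Osmr per Lifr was 0.502, 0.568 and 0.508 in Il22r+/+ against 0.271, 0.275 and 0.204 in Il22r-/-, a log2 difference of -1.08 with no overlap either. A two-sided exact permutation test gave p = 0.1 for each of these ratios, the smallest value that 3 against 3 libraries allow, and an adjusted p of 0.25 over the 5 ratios computed, so none could pass. Relative to gp130, the other chains differed less: the log2 difference was 0.11 for Lifr, 0.24 for Il6ra and -0.21 for Il11ra1 (exact p = 0.2, 0.5 and 0.5), and the genotypes overlapped in each.

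**Figure D4:**
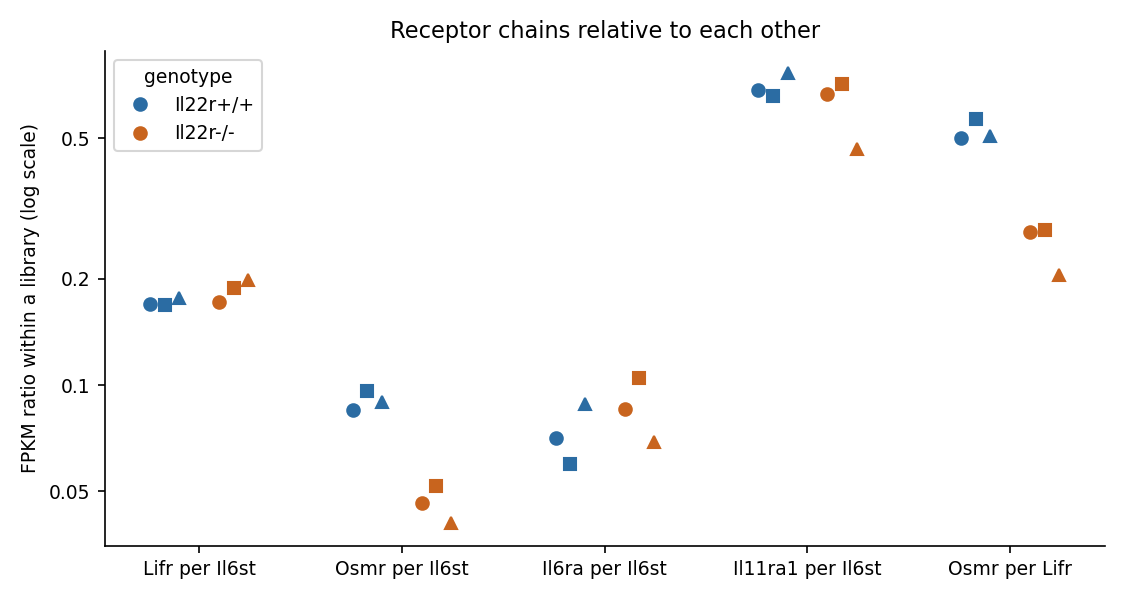
FPKM of a receptor chain divided by that of gp130 (Il6st) or of Lifr in the same library, on a logarithmic vertical axis, for 5 pairs along the horizontal axis, with circles, squares and triangles for replicates 1, 2 and 3 of each genotype. Osmr per Il6st falls from a mean of 0.0903 to 0.0463 and Osmr per Lifr from 0.526 to 0.250, and the remaining pairs overlap.

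Further family genes were scarce. Il27ra and Cntfr are given here and were chosen after their values were seen. Il27ra, the interleukin-27 receptor chain that pairs with gp130, fell from 35, 58 and 54 reads in the wild-type to 16, 19 and 12 in the knockout libraries (log2 fold change -1.71 ± 0.32, edgeR adjusted p = 0.00138). Cntfr, the alpha chain of the ciliary neurotrophic factor receptor, had 11, 10 and 15 reads against 11, 5 and 3 and did not pass (-0.98 ± 0.50, adjusted p = 0.135), with a log2 fold change of -1.58 without Il22r-/- replicate 1.

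Downstream of gp130, transcripts of the signalling chain were split. Of 22 listed transducers, all tested, 4 were higher and 6 lower, a share of 45.5% called, near the 45.7% of all tested genes, with a median log2 fold change of -0.04. The kinase genes Jak1 and Jak2 did not pass (log2 differences of 0.17 and 0.16, chosen after their values were seen). Stat3 fell from 251 ± 12.5 to 134 ± 5.95 CPM (log2 fold change -0.91 ± 0.08), and the ERK pathway kinase Map2k1 from 263 ± 5.01 to 139 ± 11.9 CPM. Pik3r1, a regulatory subunit of PI3-kinase, rose from 134 ± 7.46 to 859 ± 73.1 CPM (2.68 ± 0.10). With library size alone as the scaling, which puts the median gene 0.13 above 0 on the log2 scale instead of 0.03, 8 transducers instead of 4 were higher.

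Inhibitors of the pathway and the proteases that shed its receptors also moved both ways, with 3 higher and 4 lower of 14 (median log2 fold change -0.02), so 7 of 14 were called, near the 45.7% of all tested genes. Socs3, the feedback inhibitor that binds gp130, fell from 30.7 ± 4.33 to 12.1 ± 0.983 CPM (log2 fold change -1.34 ± 0.13), and Cish from 12.8 ± 1.65 to 7.11 ± 0.392 CPM. Socs2, better known as a brake on growth hormone signalling, rose from 34.9 ± 1.23 to 121 ± 6.92 CPM. Adam10 and Adam17, proteases that release soluble IL-6 receptor, did not pass (0.08 ± 0.08 and -0.02 ± 0.07, chosen after their values were seen), while Rhbdf2, which helps Adam17 to mature, fell from 98.4 ± 6.94 to 49.6 ± 4.07 CPM.

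Of 24 genes known as STAT3 targets, 21 were tested, and 14 were lower and 3 higher, 81.0% called against 45.7% of all tested genes, with a median log2 fold change of -0.45. Earlier results of these samples were known when this list was written, so its direction is not independent evidence. Cebpb, a leucine zipper factor induced by IL-6, fell from 278 ± 44.9 to 99.9 ± 10.5 CPM, the adhesion molecule gene Icam1 from 7.55 ± 0.835 to 1.97 ± 0.575 CPM, and Ccnd1, which encodes cyclin D1, from 37.2 ± 1.45 to 10.3 ± 4.56 CPM. Steap4, a metalloreductase gene, had 8.07, 7.16 and 10.0 CPM in Il22r+/+ and 0, 1.07 and 0 CPM in Il22r-/-, where all 20 reads were in replicate 2. Its log2 fold change of -4.47 was -10.17 without that library, a size set by the fit, and -3.86 without Il22r-/- replicate 1. The DESeq2 Wald test ended the Steap4 call (adjusted p = 0.0504, against 5.0e-06 at the lowest under other settings). The 3 genes that rose, named after their values were seen, were the growth regulator Myc, the survival and mitosis gene Birc5 and the fibrinogen-like gene Fgl2, the last with 2 reads in all of Il22r+/+.

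The genes of factors that act at promoters of the ligand genes also moved both ways. Of 20 such genes, of which Junb, Fos and Hif1a are also on the STAT3 target list, 3 were higher and 7 lower (median log2 fold change -0.23), so 10 of 20 were called, near the 45.7% of all tested genes. Among the NF-kB subunits Relb fell from 15.1 ± 1.58 to 9.72 ± 1.08 CPM (log2 fold change -0.63 ± 0.14), and the AP-1 gene Junb fell from 50.1 ± 2.26 to 36.7 ± 4.74 CPM (-0.45 ± 0.10). Fos, the partner of the Jun proteins in AP-1, was chosen after its values were seen; it stood at 79.4 and 79.0 CPM and did not pass (log2 difference -0.01 ± 0.11). Atf3, a stress-induced factor that binds AP-1 and CRE sites, rose from 2.35 ± 0.644 to 5.46 ± 0.412 CPM, and Ets1 rose from 20.4 ± 1.48 to 29.6 ± 1.74 CPM. Scaled by library size alone, 6 were higher and 4 lower, so the balance of directions in this list rests on the scaling.

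**Figure D5:**
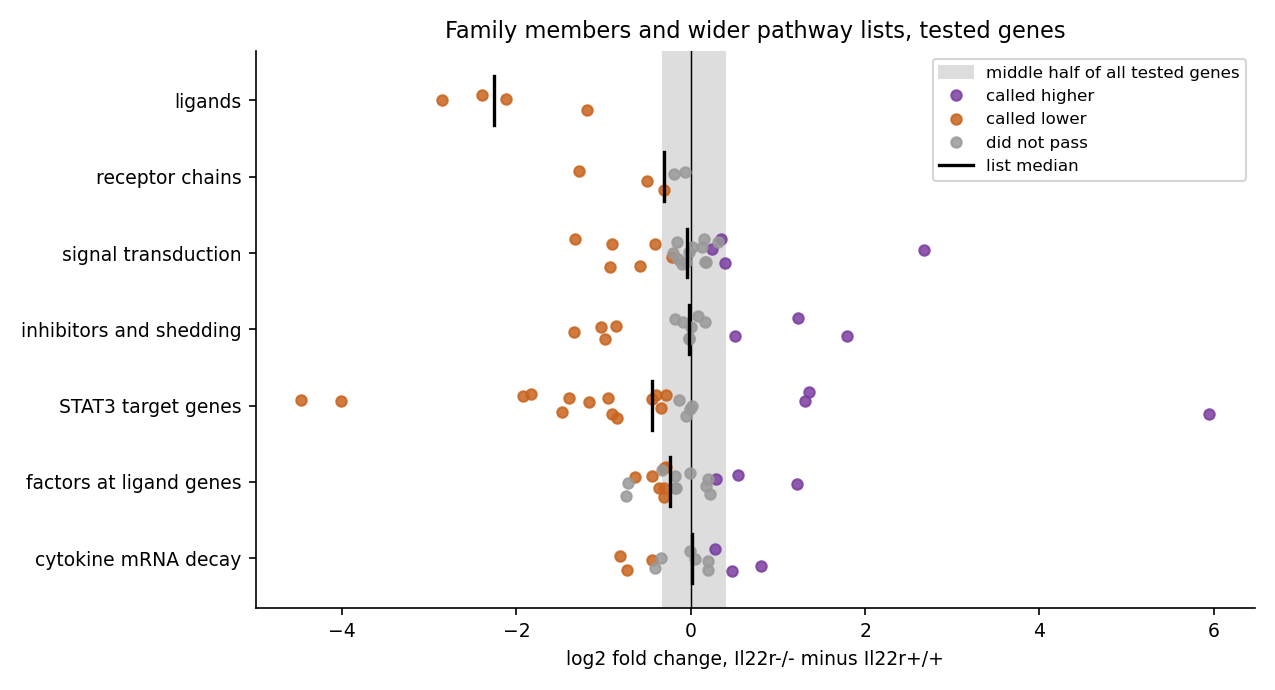
Log2 fold change (horizontal axis) of the tested genes in the ligand and receptor groups and in 5 wider pathway lists (rows), coloured by the edgeR call, with the list median as a vertical line and the range between the quartiles of all tested genes shaded. The ligand median of -2.26 lies farther below 0 than that of any other row shown, and the medians of the transducers (-0.04) and inhibitors (-0.02) lie near 0.

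Other genes followed the same profile over the 6 libraries. Likeness was measured as the root mean square distance between centred log2 CPM profiles, over the 10535 protein-coding genes that averaged 5 CPM or more. Nearest to Lif were Sync, Arhgef37, Lhfp, Irf5 and Fbln2, at distances from 0.12 to 0.197 on the log2 scale. Sync, which encodes the intermediate filament protein syncoilin, fell from 15.4 ± 0.463 to 3.18 ± 0.495 CPM, and Fbln2, the gene of the matrix protein fibulin-2, from 235 ± 27.1 to 34.8 ± 6.19 CPM. Nearest to Il6st were Ankrd13c, Parva, Ptpn23, Phc3 and Wdr37, at 0.0292 to 0.0335. The 6 libraries fall into 2 groups, so genes with a like genotype difference rank high by construction.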

How the data were processed

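RNA of cultured granulosa cells was sequenced in 6 libraries, 3 Il22r+/+ and 3 Il22r-/-, grouped by their titles. The authors deposited whole-number read counts per gene, made with featureCounts 1.5.0-p3 on mm10 per the submitters' processing notes; the sources used here do not give the aligner, strand setting or filters. The deposited FPKM values came from the same counts, divided by gene length and a library total that the authors had rescaled to 0.937 to 1.05 times the count total, by a method not given. Genes passing filterByExpr (15227 of 55860) were scaled by TMM and tested in edgeR 4.0.16 (robust quasi-likelihood fit, genotype as the only term, two-sided), with Benjamini-Hochberg adjustment over all of them. SE is the log2 fold change divided by the square root of its F statistic. Steps were tested on simulated data. Alternatives used DESeq2 1.42.0, limma 3.58.1, other scalings and filters, limma on log2(FPKM + 1) or + 0.1, leaving out each library, and a replicate block. Replicates differed by more than sampling noise, so none was counted as a duplicate.

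Named genes were all members, up to 4 called genes per pathway list by size of change with at least 5 CPM in 1 genotype, Stat3 and Socs3, the 2 most abundant genes of a marker list, and the 5 genes most like Lif and Il6st; others are said to be chosen after their values were seen. Some genes this rule covers are not reported here. Marker lists not described in the text are summarised in the closing section. The members and lists were chosen with earlier results of these data known. Exon overlaps and shared transcript windows came from GENCODE M21 (mm10), and promoters from the RefSeq table on GRCm38.p6, where 9 of 10 members were found. R was 4.3.3.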

Additional observations from a re-analysis of the deposited data

How the results depend on the processing

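The falls of Lif, Il6, Clcf1, Ctf1, Osmr and Il11ra1 kept their direction and call under every alternative in which each was tested. For Lif the log2 fold change ran from -2.50 to -2.26 when single libraries were left out and from -2.41 to -1.94 over the other settings. The stricter filter left 6 members to test and called 5, and with that filter 5375 of 9929 tested genes were called. The log2(FPKM + pseudocount) scale shrank the fall of low genes, to -0.70 for Il6 and -0.51 for Clcf1 at their smallest. The Il6st call was lost with library size alone (-0.20) and in unfiltered log2(FPKM + 1) (-0.31), and its value ran from -0.40 to -0.27 with single libraries left out. With single libraries left out Lifr ran from -0.34 to -0.11 and Il6ra from -0.20 to 0.043, and Il6ra was 0.040 with library size alone. The cause of these changes was not tested.

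The count of called members was 5 to 8 over all alternatives, which tested 6 to 10 of them. Over all genes, 5372 to 8120 of 15227 were called with single libraries left out. With library size alone 63.6% of calls were higher instead of 51.59%. After seeing the data, 5 pathway lists were also counted with library size alone and without Il22r-/- replicate 3. Counts moved by over 1.5 times only with library size alone, where 8 transducers were higher, and 6 factors at the ligand genes were higher and 4 lower. Replicate numbers are shared by the genotypes, but same-numbered libraries did not deviate together (correlations 0.03, -0.04 and -0.03), so the numbers are not taken as pairs; with the replicate block 6405 genes and 7 members were called. Depth limits Il11, Clcf1 and Il6, whose pooled Il22r-/- reads were 10, 28 and 14.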

Other observations

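Proteins that bind cytokine mRNAs and control their decay changed in both directions, 3 higher and 3 lower of 12 listed genes (median log2 fold change 0.02), so 6 of 12 were called, near the 45.7% of all tested genes. Zfp36, which encodes tristetraprolin and promotes the decay of AU-rich mRNAs, fell from 68.9 ± 2.73 to 39.4 ± 3.56 CPM (log2 fold change -0.81 ± 0.09), and Rc3h2, a roquin gene, from 124 ± 17.4 to 74.4 ± 12.2 CPM. Hnrnpd, an AU-rich element binding protein gene, rose from 66.0 ± 3.36 to 115 ± 22.1 CPM, and Zfp36l2 from 38.9 ± 0.182 to 54.0 ± 7.76 CPM. Zc3h12a, which encodes the Il6 mRNA nuclease Regnase-1 and is named after its values were seen, did not pass at 7.14 ± 0.580 against 5.36 ± 0.481 CPM (edgeR adjusted p = 0.0665).

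Further marker lists gave these summed levels. Smooth muscle markers, led by Acta2 and Mylk, summed to 380.2 to 442 CPM in Il22r+/+ and 485 to 736 CPM in Il22r-/- (5 of 7 tested higher, 1 lower), and stroma and theca markers, led by Col3a1 and Dcn, to 682 to 703 and 226 to 385 CPM (1 of 6 tested higher, 2 lower). Endothelial markers, led by Egfl7 and Tek, summed to 6.74 to 8.94 and 7.29 to 11.7 CPM (2 of 4 tested higher, 1 lower). Lymphocyte and neutrophil markers, led by Ptprc and Cd79a, summed to at most 2.08 CPM in any library with none tested, and oocyte markers, led by Ddx4 and Gdf9, to at most 3.05 CPM with neither of the 2 tested called. Of 14 tested granulosa markers 5 were higher and 4 lower. The part of these differences in the family's changes was not tested.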
